A study of Homo sapiens with 12 samples.

Results

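The genes described here are 7 members of the S100A family of small calcium-binding proteins, S100A4, S100A6, S100A10, S100A11, S100A13, S100A14 and S100A16. They were taken by gene name, 7 of the 58575 genes in the deposited count table. They were chosen because their levels differed between culture conditions in these same libraries, so their levels and fold changes are given as a description, without p-values.

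RNA-Seq was performed on the human induced pluripotent stem cell (iPSC) line 201B7, which the labels trace to skin, in 4 culture conditions with 3 libraries each. All cells were kept on iMatrix511, seeded with Y-27632 and harvested on Day 5. Cond 1 was the control, in StemFit maintenance medium. Cond 2, labelled low nutrient, was grown in StemFit that had been heated at 56 °C for 30 min. Cond 3, labelled differentiation, was grown in DMEM with 10% fetal bovine serum, 1% non-essential amino acids and 1% GlutaMax. Cond 4, the physical stimulus, was pipetted 20 times at passaging and then grown as the control. The comparisons with Cond 1 ask how a culture condition changed the cells, and a further one sets Cond 3 against Cond 2. All libraries come from 1 cell line. The study's results call the replicates technical while its methods describe an arrangement run in triplicate, so how far they are independent is not settled, and error bars and p-values measure the spread between these samples. Cond 3 differed from Cond 1 in the basal medium as well as in serum, so the components of the medium cannot be told apart. The study places the start of heated medium in Cond 2 at Day 2 and that of serum in Cond 3 at Day 4. Time in the changed medium thus also differed between Cond 2 and Cond 3, and cannot be told apart from the medium itself.

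S100 proteins are small EF-hand proteins that work mostly as dimers: calcium opens a hydrophobic face with which they hold a target protein. They have no enzyme activity and act through the proteins they bind, among them annexins, non-muscle myosin, p53 and membrane channels, and some are also released from cells and act on receptors. Most of the family lies in a cluster on the long arm of chromosome 1, next to the genes of the epidermal differentiation complex. In many cell types, S100A10 and S100A11 are known as partners of annexin A2 at the plasma membrane, while S100A4 is widely used as a marker of fibroblasts and of mesenchymal change.

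All 7 genes lie on the minus strand of chromosome 1 in GRCh38, in separate stretches. S100A10 (ENSG00000197747, chr1:151982915-151993859) and S100A11 (ENSG00000163191, chr1:152032506-152047907) are 38646 bases apart. A gap of 1486691 bases separates them from the other 5, which are S100A6 (ENSG00000197956, chr1:153534599-153536244), S100A4 (ENSG00000196154, chr1:153543613-153550136), S100A16 (ENSG00000188643, chr1:153606886-153613145), S100A14 (ENSG00000189334, chr1:153614255-153616986) and S100A13 (ENSG00000189171, chr1:153618787-153631360). S100A16 and S100A14 are 1109 bases apart and S100A14 and S100A13 are 1800 bases apart. Of the exon bases of S100A13, 10.6% lie opposite exons of S100A1 and 24.2% are shared on the same strand with a long non-coding RNA that had 0 reads. How strand was used in counting is not given in the sources used here, so reads of S100A13 and S100A1 over that stretch may be mixed. S100A11 shares some 31-base stretches with 4 other annotated genes, the pseudogenes S100A11P1 and S100A11P2 among them, none of which had more than 1 read in a library. S100A16 shares a few such stretches with a number of expressed genes, at most 9 of them (0.522% of those in S100A16) with any one gene.

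The promoters of the 3 members with the largest fold changes are shown because these genes moved in different directions. They are the 250 bases before the RefSeq start, read 5′ to 3′ on the minus strand of GRCh38.p14, for S100A4 (chr1:153545807-153546056), S100A6 (chr1:153535992-153536241) and S100A11 (chr1:152037005-152037254). Capitals mark a TATA box (TATAAA) or a GC box (GGGCGG).
S100A4: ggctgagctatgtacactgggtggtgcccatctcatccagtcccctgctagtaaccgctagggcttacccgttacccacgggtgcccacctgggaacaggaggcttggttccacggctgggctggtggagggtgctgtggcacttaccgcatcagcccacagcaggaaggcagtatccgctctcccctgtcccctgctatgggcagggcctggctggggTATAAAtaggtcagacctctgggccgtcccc
S100A6: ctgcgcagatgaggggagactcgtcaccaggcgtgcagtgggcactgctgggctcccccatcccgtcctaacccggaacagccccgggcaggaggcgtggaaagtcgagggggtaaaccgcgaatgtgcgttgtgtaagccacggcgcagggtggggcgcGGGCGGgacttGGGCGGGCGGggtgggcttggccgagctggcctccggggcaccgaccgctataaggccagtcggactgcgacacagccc
S100A11: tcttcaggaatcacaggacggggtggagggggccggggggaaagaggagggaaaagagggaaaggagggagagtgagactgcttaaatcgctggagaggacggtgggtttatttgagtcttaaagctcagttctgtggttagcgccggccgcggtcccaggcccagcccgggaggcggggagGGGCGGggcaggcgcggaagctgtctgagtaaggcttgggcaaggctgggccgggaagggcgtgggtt
The S100A4 window held a TATA box whose first base was at -31 from the start, and no GC box. The S100A6 window held 3 GC boxes, at -90, -79 and -75, of which the last 2 overlap, and the S100A11 window held 1 at -68. Both strands were searched for these motifs and for the AP-1 motif TGANTCA and the TEAD motif GGAATG, in windows of 300 bases that also hold the first 50 transcribed bases. Among 35116 RefSeq promoters of that length, 11.5% held the TATA box, 45.0% the GC box, 7.71% the AP-1 motif and 14% the TEAD motif. None of the 10 promoter entries of the 7 members held the AP-1 motif, and both entries of S100A16 held the TEAD motif. The GC content of the 300-base windows was 60.7% for S100A4, 69.3% for S100A6 and 65.3% for S100A11, against a median of 58.7% over all promoters. A match of letters is a description and not a binding site.

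The libraries held 16441148 to 21871503 counted reads, and 17747 genes passed the filter on low counts, among them all 7 members. The pluripotency markers fixed for this work were above 1 TPM (transcript abundance scaled for gene length and library total) in all Cond 1 libraries for 12 of 12 genes, although POU5F1 was listed at only 1.03 to 1.57 TPM there, while SOX2 stood at 878 to 938 TPM. The list moved both ways, with 4 of 12 genes called higher and 5 lower in Cond 2, and 5 higher and 4 lower in Cond 3. Of all genes tested, 10.8% were called higher and 10.1% lower in Cond 2, and 19.5% and 18.8% in Cond 3. The summed level of the list was 6903 to 7317 TPM in Cond 1, 6205 to 6996 in Cond 2 and 7101 to 7599 in Cond 3. Of the markers of the labelled tissue, the skin keratins KRT5 and KRT14 and the dermal fibroblast gene DCN were at 0 in Cond 1, while 4 of the 10 fibroblast genes, COL1A1 and THY1 among them, were above 1 TPM in all Cond 1 libraries. In these bulk samples, fewer cells of a type and less RNA per cell cannot be told apart.

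The 7 genes spanned a wide range of levels. In Cond 1 the mean level was 366 ± 33.8 TPM (SD, n = 3) for S100A11, 126 ± 19.3 for S100A10, 44.7 ± 2.99 for S100A6, 39.6 ± 5.67 for S100A16, 11.5 ± 0.699 for S100A13, 8.38 ± 2.17 for S100A14 and 7.53 ± 0.515 for S100A4. S100A11 alone made up 60.6% ± 0.411 of their summed level, and its level stood above 98.1% of the genes tested. The lowest member, S100A4, stood above 42.4% of them.

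**Figure D1:**
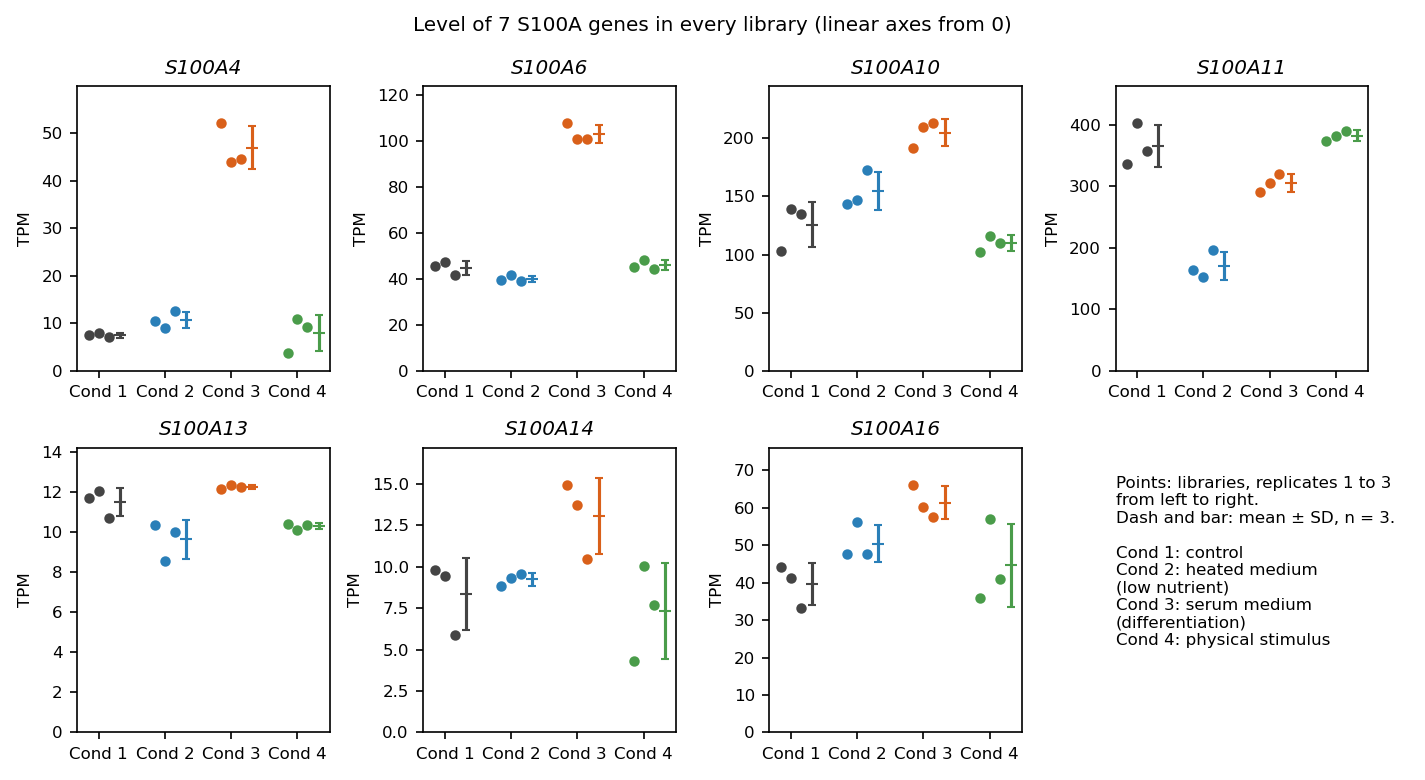
Level in TPM (y axes, linear from 0) of each member in the 12 libraries, by culture condition (x axes). Points are libraries and the dash and bar are the mean ± SD (n = 3). S100A4 and S100A6 stand highest in Cond 3, S100A11 lowest in Cond 2, and Cond 4 lies near Cond 1.

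Of the annexin partners S100A11 and S100A10, only S100A11 was called in heated medium, where its level came close to that of S100A10. S100A11 was at 337, 403 and 357 TPM in the 3 Cond 1 libraries, 165, 152 and 196 in Cond 2, 291, 305 and 320 in Cond 3, and 374, 382 and 391 in Cond 4. All 3 Cond 2 libraries lay below every other library, the Cond 3 libraries lay between Cond 2 and Cond 1 without overlap, and Cond 1 and Cond 4 overlapped. S100A11 works with annexins A1 and A2 and has a known part in membrane repair and in growth arrest of keratinocytes. In Cond 2 it fell by 1.19 on the log2 scale (SE 0.09), to 0.440 times the control (95% interval 0.389 to 0.497), and the fitted log2 fold changes of Cond 3 and Cond 4 against Cond 1 were -0.29 ± 0.09 and 0.05 ± 0.09. The smaller difference in Cond 3 was not called when Cond 1 replicate 2 (-0.22) or Cond 3 replicate 1 (-0.25) was left out.

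S100A10, also called p11, has lost the ability to bind calcium and forms a stable complex with annexin A2, which carries plasminogen activators and channels at the cell surface. It was at 103, 139 and 135 TPM in Cond 1, 144, 147 and 173 in Cond 2, 192, 210 and 213 in Cond 3, and 103, 116 and 110 in Cond 4. The libraries of Cond 3 lay above all others, those of Cond 2 lay between Cond 1 and Cond 3, and Cond 4 overlapped Cond 1. In Cond 3 it exceeded the control by 0.68 ± 0.10 (log2, SE), with fitted differences of 0.21 ± 0.10 for Cond 2 and -0.21 ± 0.11 for Cond 4. Of the 3 differences, the one in Cond 3 passed the threshold of an adjusted p of 0.05.

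The balance between these genes differed with the medium. The ratio of S100A11 to S100A10 TPM was 3.25, 2.90 and 2.66 in Cond 1, 1.14, 1.04 and 1.13 in Cond 2, 1.52, 1.46 and 1.5 in Cond 3, and 3.65, 3.29 and 3.55 in Cond 4. In TPM, S100A11 was therefore nearly level with S100A10 in Cond 2 and stood well above it in Cond 1 and Cond 4. The ratio of S100A10 to ANXA2, the annexin it binds, was 1.85, 2.14 and 2.25 in Cond 1, 2.78, 2.34 and 2.71 in Cond 2, 1.81, 1.88 and 1.94 in Cond 3, and 1.78, 2.01 and 2.01 in Cond 4. In Cond 3, S100A10 and ANXA2 were both higher, and the range of their ratio overlapped that of Cond 1. In Cond 2 the ratio lay above Cond 1 without overlap. The ratio of S100A11 to ANXA2 stood at 6.07 ± 0.124 (SD, n = 3) in the control and at 6.76 ± 0.348 in Cond 4, and was lower in both changed media, at 2.89 ± 0.413 in Cond 2 and 2.80 ± 0.101 in Cond 3. By reads, ANXA2 stood above S100A10 in Cond 1, at 2702 to 3087 a library against 577 to 798. The size of each ratio thus rests on the gene lengths used for TPM, which are the same in every condition. Only differences of a ratio between conditions are free of them.

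**Figure D2:**
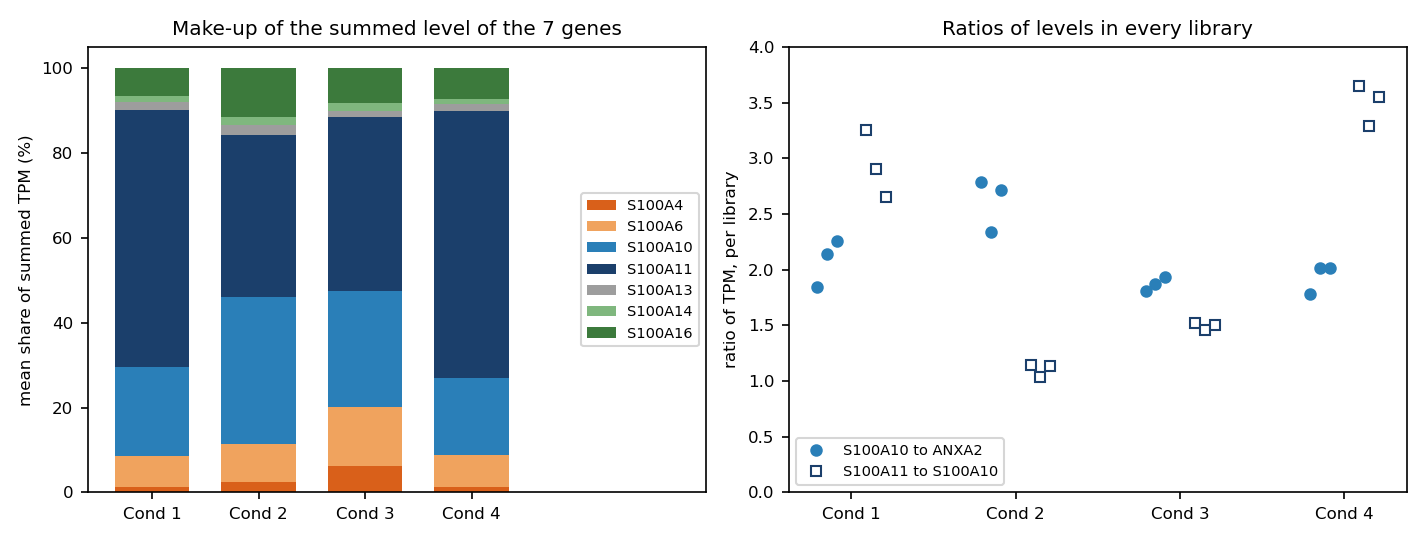
Left, mean share of each member in their summed TPM (y axis, percent) by condition. Right, ratio of S100A10 to ANXA2 (filled circles) and of S100A11 to S100A10 (open squares) in every library. S100A11 made up 60.6% of the sum in Cond 1, 38.3% in Cond 2, 40.9% in Cond 3 and 62.9% in Cond 4.

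S100A4, also known as metastasin or fibroblast-specific protein, binds the heavy chain of non-muscle myosin and is tied to cell motility. It showed the largest fold change of the 7 genes. It was at 7.48, 8.06 and 7.04 TPM in Cond 1 (39, 36 and 39 reads), 10.5, 9.07 and 12.5 in Cond 2 (50, 49 and 57 reads), and 52.1, 44 and 44.6 in Cond 3 (302, 228 and 224 reads). In Cond 4 it was at 3.8, 10.9 and 9.19 TPM (17, 53 and 47 reads), so replicate 1 lay below and replicates 2 and 3 above the Cond 1 libraries. All Cond 3 libraries lay far above the rest. In Cond 3, S100A4 rose by 2.61 ± 0.25 on the log2 scale, to 6.11 times the control (95% interval 4.33 to 8.63). The fitted log2 difference of Cond 2 was 0.42 ± 0.27 and that of Cond 4 was 0.08 ± 0.28, and leaving out 1 library moved the latter between -0.20 and 0.41. In Cond 3, S100A4 stood above 79.1% of the genes tested.

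Because S100A4 is used as a fibroblast marker, a list of 10 fibroblast genes was read beside it. Its summed level was 425 to 457 TPM in Cond 1, 267 to 315 in Cond 2, 590 to 627 in Cond 3 and 385 to 409 in Cond 4. In Cond 3, 4 of the 8 tested genes of that list rose and 1 fell (edgeR, adjusted p under 0.05), where 19.5% of all genes were called higher and 18.8% lower. COL1A1, a chain of type I collagen, carried most of the sum, at 234 to 259 TPM in Cond 1 and 419 to 454 in Cond 3, while THY1 was at 126 to 157 TPM in Cond 1 and 48.6 to 49.2 in Cond 3. DCN was at 0 in all Cond 3 libraries and LUM at no more than 0.137 TPM there. The part of these cells, if any, in the S100A4 level was not tested.

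S100A6, or calcyclin, was first found as a gene induced when resting fibroblasts are given serum growth factors, and its protein binds CACYBP. It was at 45.4, 47.3 and 41.5 TPM in Cond 1, 39.5, 41.5 and 39.1 in Cond 2, 108, 101 and 101 in Cond 3, and 45.3, 48.4 and 44.2 in Cond 4. Every Cond 3 library had over 100.7 TPM and no other library over 48.4. In Cond 3 it rose by 1.18 ± 0.11 on the log2 scale, to 2.26 times the control (95% interval 1.96 to 2.61), beside fitted values of -0.24 ± 0.11 for Cond 2 and 0.03 ± 0.11 for Cond 4. S100A6 and S100A4 lie next to each other but for S100A5, and S100A4 had the larger fold change in Cond 3, so the ratio of S100A6 to S100A4 TPM was 5.95 ± 0.108 in Cond 1 and 2.2 ± 0.122 in Cond 3 (SD, n = 3).

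S100A13, which helps to release fibroblast growth factor 1 and interleukin 1 alpha without a signal peptide, had the narrowest range of the 7. It was at 11.7, 12 and 10.7 TPM in Cond 1, 10.4, 8.53 and 10.0 in Cond 2, 12.2, 12.4 and 12.2 in Cond 3, and 10.4, 10.1 and 10.3 in Cond 4. Its libraries in Cond 2 and Cond 4 lay below those of Cond 1 and its Cond 3 libraries just above, and all 12 libraries lay between 8.53 and 12.4 TPM. Its fitted log2 differences from the control were -0.34 ± 0.16 for Cond 2, 0.07 ± 0.16 for Cond 3 and -0.17 ± 0.16 for Cond 4, none of them called by edgeR. Both forms of limma on TPM values called S100A13 lower in Cond 2.

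S100A14 and S100A16 lie side by side and are known mainly from epithelia. S100A16 was at 44.3, 41.2 and 33.3 TPM in Cond 1, 47.7, 56.1 and 47.6 in Cond 2, 66.2, 60.2 and 57.6 in Cond 3, and 35.9, 57.2 and 41.1 in Cond 4. Its Cond 3 libraries lay above all others, and Cond 4 overlapped Cond 1 and Cond 2. It rose by 0.61 ± 0.14 (log2) in Cond 3, and the fitted values of Cond 2 and Cond 4, 0.27 ± 0.14 and 0.17 ± 0.14, were not called. S100A14, an unusual member whose EF-hands bind calcium weakly, was at 9.81, 9.46 and 5.88 TPM in Cond 1, 8.83, 9.32 and 9.59 in Cond 2, 15, 13.7 and 10.5 in Cond 3, and 4.30, 10.1 and 7.67 in Cond 4. It rested on 26 to 117 reads a library, and its spread within Cond 1 and Cond 4 was wide. The log2 fold change of 0.62 ± 0.27 in Cond 3 was close to that of S100A16 but was not called, except when Cond 4 replicate 1 was left out of the fit (0.62). The 10 genes of simple epithelium read beside them, among them KRT8, KRT18 and CDH1, summed to 3480 to 3771 TPM in Cond 1, 3479 to 3679 in Cond 2 and 3641 to 3742 in Cond 3, so their sums overlapped between these conditions. Under these sums, 4 of the 10 were called higher and 2 lower in Cond 3, where 19.5% of all genes were called higher and 18.8% lower. In Cond 2, 1 was called higher and 4 lower, where 10.8% of all genes were called higher and 10.1% lower. The 8 genes of surface ectoderm were low, at 0.419 to 0.532 TPM in Cond 1 and 0.774 to 1.93 in Cond 3. Their sum was higher in Cond 2, at 12.1 to 48.0. A list of 8 neuroectoderm genes summed to 7.93 to 16.8 TPM in Cond 1 and 33.18 to 50.03 in Cond 3. In Cond 2 that list summed to 323 to 546 TPM, so the higher sums there were not confined to surface ectoderm. Of its 5 tested genes, 3 were called higher and 1 lower in Cond 2.

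Against Cond 1, 1 of the 7 members was called in Cond 2 (S100A11, lower), where 20.9% of all genes tested were called, 10.8% higher and 10.1% lower. In Cond 3, 5 of 7 were called, S100A4, S100A6, S100A10 and S100A16 higher and S100A11 lower, where 38.4% of all genes were called, 19.5% higher and 18.8% lower. In Cond 4, 0 of 7 were called by edgeR, DESeq2 or limma and 0 had an unadjusted p under 0.05, and 0.0282% of all genes were called. Because the members were chosen on these libraries, nothing is read from these counts. By library, 6 of the 7 did not overlap Cond 1 in Cond 2, 3 of them higher and 3 lower, where 35.7% of genes tested did not overlap, 24.4% higher and 11.2% lower. On the TPM scale the median gene was 0.085 higher (log2) in Cond 2 than in Cond 1, which adds to the genes counted as higher there. In Cond 3 all 7 did not overlap Cond 1, 6 of them higher, against 48.6% of genes tested (26.6% higher and 22% lower). In Cond 4 only S100A13 did not overlap, on the lower side, against 11.9% of genes in either direction and 5.12% lower. For Cond 2, Cond 3 and Cond 4 in turn, the median over the members was 0.06, 0.62 and 0.03 on the log2 scale, and that over all genes tested was 0.00, -0.01 and 0.00.

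Set directly against Cond 2, all 7 members were higher in Cond 3 without overlap of libraries (47.6% of genes tested did not overlap, 20.3% on the higher side), and 6 of 7 were called, where 38.2% of genes were called and 19% called higher. The log2 differences were 2.2 ± 0.25 for S100A4, 1.42 ± 0.11 for S100A6, 0.90 ± 0.09 for S100A11, 0.47 ± 0.10 for S100A10, 0.41 ± 0.16 for S100A13 and 0.34 ± 0.13 for S100A16, with 0.56 ± 0.27 for S100A14 not called. The call of S100A13 was kept in 1 of the 12 fits that left out 1 library, the fit without Cond 2 replicate 1 (0.48), and that of S100A16 in 4 of 12. This comparison shares its Cond 2 and Cond 3 libraries with those above. Time in the changed medium also differed between Cond 2 and Cond 3.

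**Figure D3:**
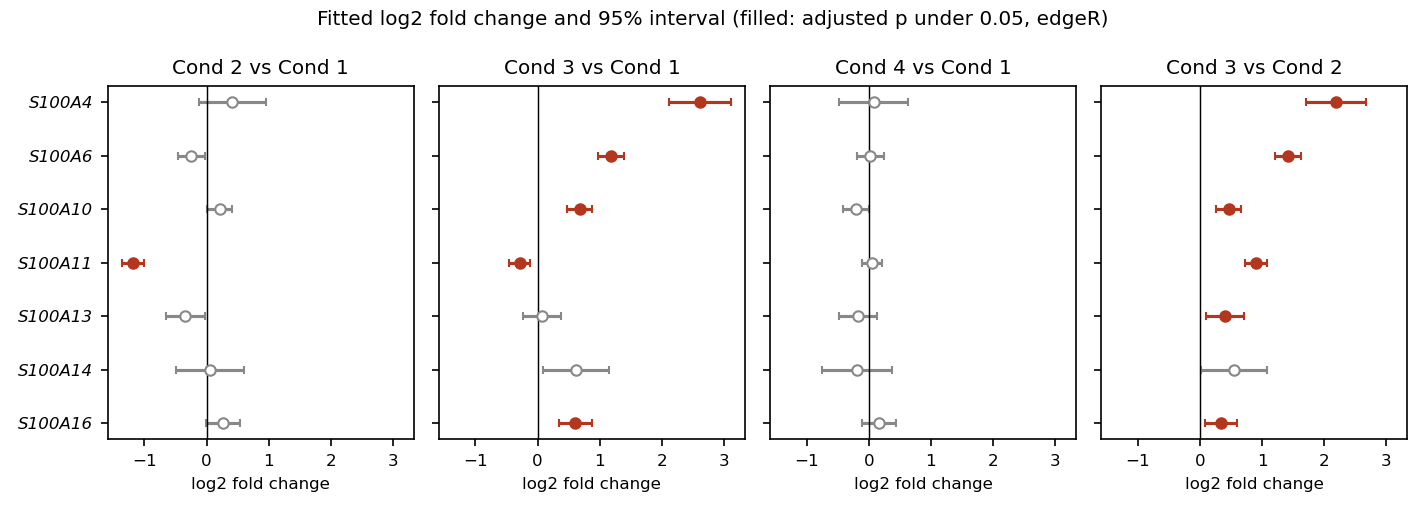
Fitted log2 fold change (x axes) of each member in the 4 comparisons, with bars of the 95% interval. Filled points passed an adjusted p of 0.05 in edgeR over all genes. S100A4 reached 2.61 and S100A6 1.18 in Cond 3, and S100A11 fell by 1.19 in Cond 2.

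By condition, the order of the levels can be given for each gene. Cond 3 held the highest level of S100A4, S100A6, S100A10, S100A13, S100A14 and S100A16, each time without overlap with the next condition. No share of all genes is given for such an order over the conditions, so nothing is read from it. S100A11 was highest in Cond 4, which overlapped Cond 1. Cond 2 held the lowest level of S100A6, S100A11 and S100A13, and for S100A13 its libraries overlapped those of Cond 4. Summed over the 7 genes, the level came to 603 ± 51.6 TPM in Cond 1, to 446 ± 36.8 in Cond 2, to 747 ± 11.4 in Cond 3 and to 608 ± 30.0 in Cond 4 (SD, n = 3). S100A11 accounted for a mean of 171 ± 22.7 TPM of the sum in Cond 2, against 366 in Cond 1.

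The genes whose pattern over the 12 libraries was most like each strongly changed member were found by the root mean square difference of log2 CPM (reads scaled to the library total, not to gene length), centred on the Cond 1 mean, among 15700 genes. For S100A4 these were TMEM151A (0.371), FNDC5 (0.376) and SPTB (0.406), for S100A6 DIRAS1 (0.128), BMF (0.132) and LDHA (0.138), and for S100A11 PIM2 (0.145), NLGN1 (0.154) and CNOT6L (0.160). LDHA, a subunit of lactate dehydrogenase, had log2 fold changes of -0.33 in Cond 2 and 0.98 in Cond 3, beside -0.24 and 1.18 for S100A6. PIM2, a protein kinase, had -1.0 and -0.27, beside -1.19 and -0.29 for S100A11. The nearest genes to S100A4 were less close to it than those of the other members.

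The other genes of the S100 family were almost silent. Of 21 listed, which include the fused S100 genes of the skin barrier such as FLG, 20 had a row in the count table and 12 of these had 0 reads in every library, among them S100A7, S100A8, S100A12, FLG and HRNR. A count of 0 allows up to 3 reads in a library. S100A1 and S100A3 passed the filter. S100A3 did so through its reads in Cond 3, so its difference there is no independent support. S100A3, which lies within the span of S100A4 on the same strand without sharing exon bases with it, had 0, 2 and 0 reads in Cond 1, 4, 0 and 12 in Cond 2, 13, 12 and 17 in Cond 3, and 0, 0 and 1 in Cond 4. It had 42 reads in all in Cond 3 against 2 in Cond 1, a ratio of 19.6 after scaling to the library totals. The 95% interval of 5.11 to 167 covers counting error only, and ratio and interval are given as a description. In Cond 2 the 3 libraries differed widely and S100A3 was not called, with 16 reads against 2. Without Cond 2 replicate 2, 1 gene of the list was called. Its levels stayed far below those of S100A4, at 2.52 to 3.81 TPM in Cond 3. S100A1 had 35, 17 and 43 reads in Cond 1 and 44, 33 and 15 in Cond 3, which overlap.

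Of 32 annotated genes within 100 kb of a member, 8 were tested, S100A1 and S100A3 among them. In Cond 3, 4 of the 8 were called by edgeR, where 38.4% of all genes were called. S100A3, which passed the filter through its Cond 3 reads, and ILF2 (0.19 ± 0.05) were higher. THEM4 and NPR1 (-0.64 ± 0.12) were lower. THEM4, an acyl-CoA thioesterase on the far side of S100A10, fell by 1.03 on the log2 scale (SE 0.18). Its range was 5.31 to 8.12 TPM in Cond 1 and 2.66 to 4.11 in Cond 3. In Cond 2, 1 of the 8 was called, against 20.9% of all genes, NPR1, lower (-0.86 ± 0.12), and this count was 2 without Cond 1 replicate 3, Cond 2 replicate 1 or 2, Cond 3 replicate 1 or Cond 4 replicate 1. CHTOP and SNAPIN, beyond S100A13, were not called in either comparison, with log2 fold changes between -0.17 and 0.17. In Cond 4, edgeR, DESeq2 and limma called 0 of the 8, and 0 had an unadjusted p under 0.05.

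**Figure D4:**
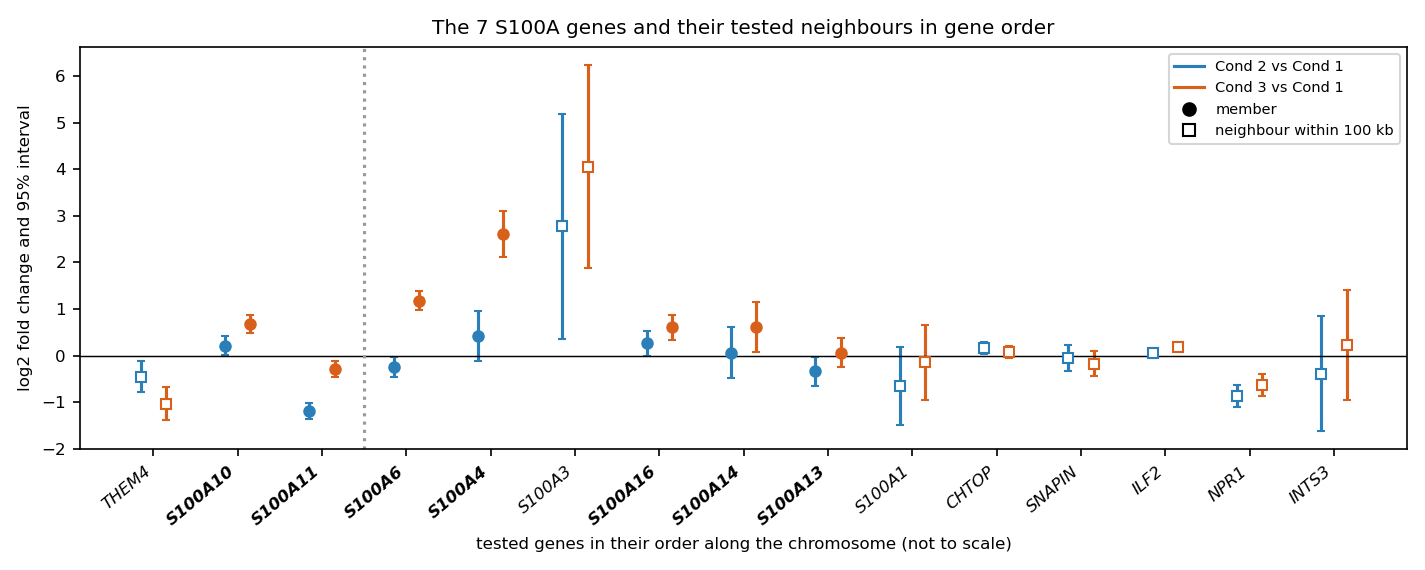
Fitted log2 fold change with bars of the 95% interval (y axis) of the 7 members (filled circles, bold names) and their tested neighbours within 100 kb (open squares), in their order along the chromosome. Blue is Cond 2 and orange Cond 3 against Cond 1, and the dotted line marks the long gap between the stretches. S100A4 and S100A3 stand highest in Cond 3.

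Annexins are calcium-dependent membrane-binding proteins, and several are carried by S100 dimers. Of 13 listed, 9 were tested. In Cond 3, 6 rose and 2 fell (edgeR, 38.4% of all genes called). ANXA2, the partner of S100A10 and S100A11, was at 56.1, 64.9 and 59.7 TPM in Cond 1. It was at 51.7, 62.8 and 63.8 TPM in Cond 2, and at 106, 112 and 110 in Cond 3. ANXA2 rose by 0.83 ± 0.07 on the log2 scale in Cond 3, with all 3 libraries above every other. ANXA1 (1.03 ± 0.25), a partner of S100A11, and ANXA9 (1.27 ± 0.24) also rose more than 2-fold, and ANXA1 varied widely in Cond 1, from 3.09 to 8.16 TPM. ANXA3 fell by 1.44 on the log2 scale (SE 0.08), from 46.8, 47.4 and 41.6 TPM in Cond 1 to 16.5, 18.1 and 16.4 in Cond 3. The median over the 9 annexins was 0.57, and that of all genes -0.01. In Cond 2, 2 of 9 were called, ANXA9 (1.16 ± 0.24) and ANXA5 (0.27 ± 0.05), both higher, where 20.9% of all genes were called. The log2 fold change of ANXA2 in Cond 2 was -0.11 ± 0.07, not called, so S100A11 was lower there while the levels of its annexin partner overlapped those of Cond 1.

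The list of 29 other partners held 25 tested genes. In Cond 3, 7 rose and 5 fell, with a median of 0.07, where 19.5% of all genes were called higher and 18.8% lower. The gene for tissue plasminogen activator, PLAT, which binds the S100A10 complex at the cell surface, was at 2.36, 2.14 and 2.01 TPM in Cond 1, 1.70, 2.78 and 1.66 in Cond 2, and 7.10, 9.63 and 8.88 in Cond 3. It rose by 1.95 ± 0.19 in Cond 3, and its Cond 3 libraries lay above all others. The receptor PLAUR also rose there, by 0.84 ± 0.14, while urokinase, PLAU, fell (-0.31 ± 0.10) in Cond 3 and rose (0.71 ± 0.10) in Cond 2. AHNAK, a giant scaffold protein that binds the S100A10 and annexin A2 complex, rose in both, by 1.05 ± 0.13 in Cond 3 and 0.79 ± 0.13 in Cond 2. FGF1, the cargo of S100A13, rose by 1.74 ± 0.35 in Cond 3 and 1.07 ± 0.36 in Cond 2, from 13 to 19 reads a library in Cond 1, while edgeR called S100A13 itself in neither (limma called it lower in Cond 2).

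In Cond 2, 7 of the 25 partners rose and 1 fell, with a median of 0.09, where 10.8% of all genes were called higher and 10.1% lower. This count of 8 rested on single libraries, being 4 without Cond 1 replicate 1 or 3, 3 without Cond 2 replicate 2 and 5 when the fit held only the 2 conditions. The gene that fell was DYSF (-1.02 ± 0.15), a membrane repair protein, at 7.01, 7.55 and 6.02 TPM in Cond 1. It was at 2.85, 4.24 and 3.64 TPM in Cond 2 and at 7.63, 7.79 and 7.12 in Cond 3. DYSF and S100A11 were thus both lower in Cond 2, and the DYSF libraries of Cond 3 overlapped those of Cond 1. CACYBP, the binding partner of S100A6, rose in Cond 3 (0.25 ± 0.06), and MYH10, a non-muscle myosin heavy chain, was not called. MYH9, the myosin that S100A4 binds, was not tested because it had a TPM value without a row of counts, at 376 to 403 TPM in Cond 1 and 300 to 323 in Cond 3. In Cond 4, edgeR, DESeq2 and limma called 0 annexins and 0 partners, with 0 and 2 at an unadjusted p under 0.05.

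**Figure D5:**
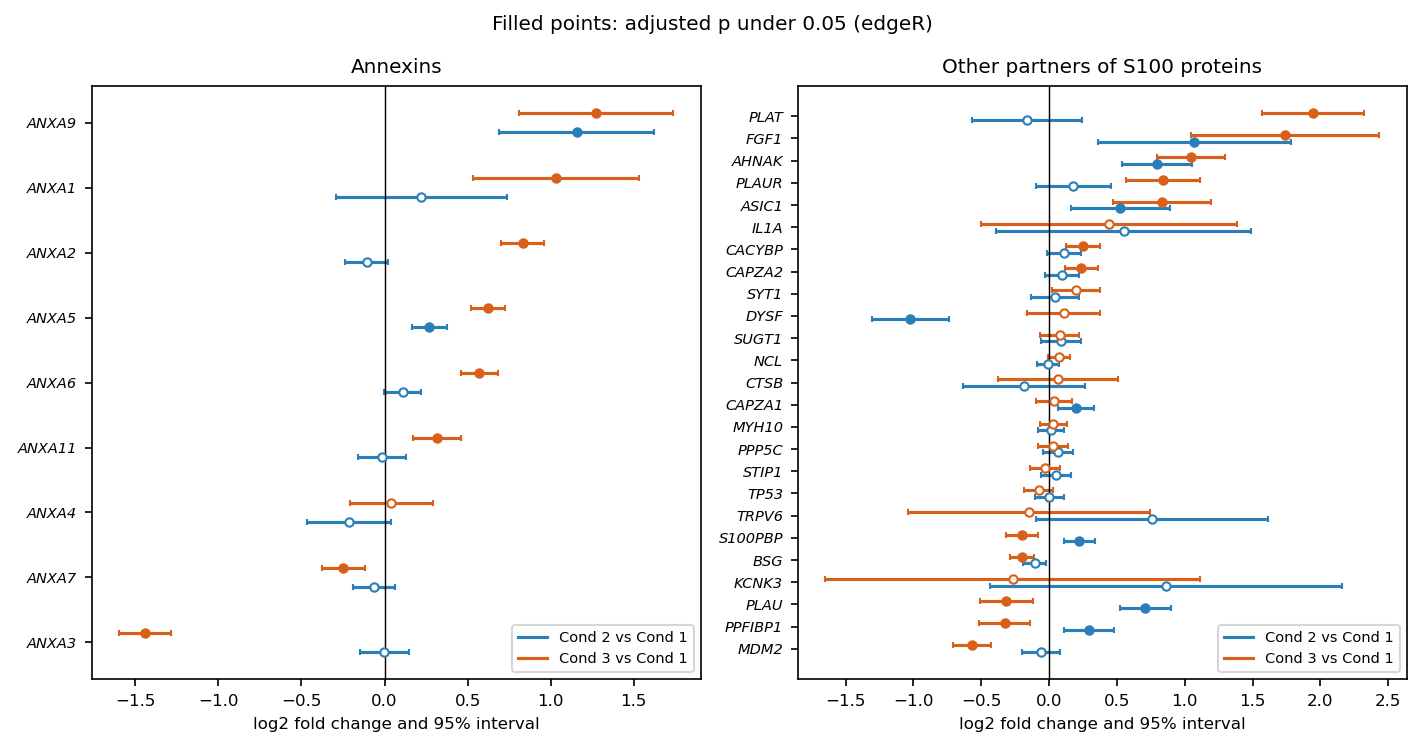
Fitted log2 fold change with bars of the 95% interval (x axes) of 9 annexins (left) and 25 other partner genes (right), in Cond 2 (blue) and Cond 3 (orange) against Cond 1. Filled points passed an adjusted p of 0.05. In Cond 3, ANXA9, ANXA1, PLAT, FGF1 and AHNAK stand above 1 and ANXA3 below -1.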

How the data were processed

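The authors removed adaptors and poor bases with cutadapt 4.1 and fastp 0.20.1 (reads made with bcl2fastq 2.20.0.422), aligned reads to GRCh38 with HISAT2 2.1.0 and counted them per gene with featureCounts. Strand and multi-mapping settings are not given in the sources used here. The deposited counts, whole numbers per gene, were used as they stand, without 5 of the 58580 lines that named no gene. The deposited TPM values were made by the authors from those counts and gene lengths, and recomputing them gave a largest relative deviation of 1.79e-14. Of 60617 genes with TPM, 2042 had no row of counts and were not tested.

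Counts of all 12 libraries were fitted together by condition with edgeR 4.0.16 (filterByExpr, TMM, quasi-likelihood test, Benjamini-Hochberg over 17747 genes, R 4.3.3). Called means an adjusted p under 0.05. The SE is the log2 fold change divided by the square root of F. The 95% intervals of fitted fold changes, in text and figures, are 1.96 SE and are somewhat narrower than the F test implies. For S100A10 in Cond 4 the interval, 0.750 to 0.998 times the control, lay wholly below the control. Its unadjusted p was still not under 0.05. On the TPM scale, pseudocounts of 1 and 0.1 were used with limma 3.58.1 in genes of at least 1 TPM. DESeq2 1.42.0 was a further alternative. Gene positions and overlaps came from GENCODE 44 and promoters from RefSeq. Tables and figures were made with Python 3.11.15. Library depth limits the precision of low genes, and intervals on read counts cover counting error only.

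The members and the lists of annexins, partners, neighbours and markers were chosen with earlier results of these data known. Calls of their genes are therefore a description, and no p-value is printed for them. All 7 members are named. Of each list, genes called with more than a 2-fold change in Cond 2 or Cond 3 are named (at most 8), ANXA2 always, and others named were chosen after their values were seen. In simulated counts for Cond 3 against Cond 1 (17309 genes), the test recovered 66 of 98 genes changed by 1 and 90 of 99 changed by 2 on the log2 scale, with 5 false calls. Few genes were changed in the simulation, and their spread followed a trend over expression level rather than each gene. In the data, 38.4% of genes were called in Cond 3, so these figures do not measure recovery there.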

Additional observations from a re-analysis of the deposited data

How the results depend on the processing

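Of the 28 log2 fold changes of members (7 genes, 4 comparisons), 12 were called, 9 of them under each of the 20 alternatives run, and 14 of the others were called under none. The called changes that were lost in some alternatives were S100A11 in Cond 3 (called in 16 of 20), and S100A13 (6 of 20) and S100A16 (10 of 20) in Cond 3 against Cond 2. Of the 560 values, 554 moved by less than the error, and no called value changed sign. The alternatives were DESeq2, upper-quartile normalization, limma on TPM values with a pseudocount of 1 or 0.1, no filter on low counts, only the 2 conditions compared, a replicate block, leaving out each library and summed pseudogenes. The share of all genes called is not given for these fits, so counts called under them show only whether a count moved.

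With a fold change above 2 as well, the members called were 1 in Cond 2 (S100A11), 2 in Cond 3 and 2 in Cond 3 against Cond 2. In the same order, the annexins came to 1, 3 and 1, the partners to 2, 3 and 3, and the genes within 100 kb to 0, 2 and 0. Where these counts are lower, that follows from the stricter threshold. No share of all genes is given at this threshold, so nothing is read from these counts. With either form of limma, 2 members were called in Cond 2, 0 other S100 family genes in Cond 3 (S100A3 was below its TPM filter), and of the genes within 100 kb 2 in Cond 2 and 1 in Cond 3 against Cond 2. Without the filter on low counts, 1 other S100 family gene was called in Cond 2 and 1 in Cond 3 against Cond 2, and 3 genes within 100 kb in Cond 2. DESeq2 called 2 genes within 100 kb in Cond 2, and the fit of only the 2 conditions called 5 partners in Cond 2. For these the cause was not tested.

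Leaving out 1 library gave 1 member called in Cond 2, 4 to 6 in Cond 3, 0 in Cond 4 and 4 to 5 in Cond 3 against Cond 2. The other S100 family genes called ranged from 0 to 1 in Cond 2, the partners from 3 to 7 in Cond 2, and the genes within 100 kb from 1 to 2 in Cond 2 and 0 to 2 in Cond 3 against Cond 2, where any of the 3 Cond 2 or 3 Cond 3 libraries lowered it.

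Libraries of different conditions share replicate numbers, but the deviations of same-numbered libraries correlated at only -0.11 to 0.16. In Cond 4 against Cond 1 these values were 0.0635, 0.0621 and 0.0671, and the highest with another number was -0.0111, -0.0226 and -0.0161. In the other comparisons the order was mixed. As all values were small, the numbers were not taken to pair samples in the main fit. With the replicate block, 1 member was called in Cond 2, 5 in Cond 3, 0 in Cond 4 and 5 in Cond 3 against Cond 2, and 2 genes within 100 kb in Cond 2. The share of all genes called under the block is not given. The ratio of S100A10 to ANXA2 had no alternative value. Pseudogenes were summed for the members only, and none is annotated for S100A10. Reads shared between ANXA2 and any pseudogene of it were not examined. At 17 to 57 reads a library outside Cond 3, S100A4 had SEs of about 0.27 on the log2 scale, so a small difference of Cond 2 or Cond 4 from the control was not detectable at this depth.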

Other observations

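The wider EF-hand superfamily, to which S100 proteins belong, was read through 32 other members, 30 of them tested by edgeR. In Cond 3, 9 rose and 5 fell against Cond 1, and in Cond 2, 5 rose and 6 fell, where 38.4% and 20.9% of all genes were called. The only member of that list past a 2-fold change against Cond 1 was VSNL1, which encodes visinin-like protein, a neuronal calcium sensor. It was at 36.7, 22.9 and 29.7 TPM in Cond 1, 10.7, 11.2 and 12.8 in Cond 2, 5.66, 7.0 and 8.21 in Cond 3, and 32.5, 26.9 and 38.6 in Cond 4. It fell by 1.45 on the log2 scale in Cond 2 (SE 0.16) and by 2.13 in Cond 3 (SE 0.16), with no overlap of either condition with Cond 1. CALB1, or calbindin, fell in Cond 2 (-0.81 ± 0.15) and rose in Cond 3 (0.80 ± 0.14), and its Cond 3 level exceeded that of Cond 2 by 1.61 ± 0.15 on the log2 scale. Like S100A4 and S100A6, it was highest in Cond 3. MYL6, a light chain of non-muscle myosin, rose by 0.59 ± 0.07 on the log2 scale in Cond 3. In Cond 4, 0 of the 30 were called by edgeR, DESeq2 or limma, with 2 at an unadjusted p under 0.05. CALB1 and MYL6 were named after their values were seen.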
